A study of Mus musculus with 9 samples.

Results

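Mib1 encodes an E3 ubiquitin ligase that acts on Notch ligands, and it was followed here with 9 genes around it in mouse tibialis anterior muscle. The members were taken by gene symbol from the deposited table, 10 of its 56805 genes. They are Mib1, its overlapping antisense gene Mir133a-1hg, its paralogue Mib2, the ligands Dll1, Dll4, Jag1 and Jag2, the receptors Notch1 and Notch3, and the target Hes1. All 10 members were among the 15279 genes with enough reads to be tested. Mib1 was selected on its measured level in these libraries, already known to be low in 1 genotype, so its values, with their SEs and intervals, are a description and no p-value is given for it.

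In Notch signalling, a Delta-like or Jagged ligand on one cell binds a Notch receptor on its neighbour. Mib1 ubiquitinates the ligand's intracellular tail, and the uptake of the ligand that follows pulls on the receptor, so that it is cleaved first by an ADAM protease and then by gamma-secretase. The freed intracellular domain joins the DNA-binding protein Rbpj and switches on genes of the Hes and Hey families. In skeletal muscle the pathway is known for keeping satellite cells, the muscle stem cells, quiescent, and it also acts in blood vessels, where Dll4 and Jag1 are ligands.

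The RNA came from the left tibialis anterior, a fast-twitch muscle of the lower leg, of male mice aged 13 months. There were 3 mice labelled Svil-Mut, 3 labelled Svil-KO and 3 wild-type (WT) mice, with 1 library per mouse. Svil encodes supervillin, an actin- and myosin-binding protein, and the labels give neither the nature of the mutant and knockout alleles nor the strain background. The study asks how altering Svil bears on the handling of glucose, the response to insulin and the working of muscle. The replicate numbers are those of the labels, 1, 2 and 4 for Svil-Mut and 1, 3 and 4 for Svil-KO and WT.

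Values are normalized counts, meaning reads divided by a size factor of the library, and the libraries held 36234428 to 48762188 reads. Differences are given on the log2(normalized count + 1) scale with a standard error (SE), first genotype minus second. A gene is called changed where the Benjamini-Hochberg adjusted p from limma, over all 15279 genes, is under 0.05. With 1 library per mouse, a p-value sets a difference against the spread between these mice, pooled over the genotypes. Svil itself stood at 4615, 3939 and 4582 normalized counts in Svil-Mut, at 7402, 6746 and 6656 in Svil-KO and at 8686, 9373 and 8407 in WT. It was called lower in Svil-Mut than in WT (-1.01 ± 0.086, limma adjusted p = 0.000941). In Svil-KO against WT it was not called (-0.35 ± 0.086, 95% interval -0.54 to -0.16, limma adjusted p = 0.997). There its unadjusted limma p was 0.00207, where 4.11% of all tested genes were under 0.05. All Svil-KO values of Svil lay below all WT values, beside 10.7% of all tested genes without overlap in either direction. On the first principal component, which held 17.8% of the variance, Svil-Mut replicate 2 lay farthest from the rest, at 79.6, and the other 2 Svil-Mut libraries at 26.3 and 16.8.

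Mib1 lies on chromosome 18 of the GRCm38 (mm10) build, from 10725548 to 10818704 on the plus strand in the GENCODE M21 annotation, and its exons cover 10937 bases in 21 blocks. Mir133a-1hg, a host transcript of the muscle microRNAs miR-133a and miR-1, runs on the minus strand from 10781723 to 10785883. It falls wholly within 1 intron of Mib1, after exon block 12, and its 395 exon bases share 0 bases with Mib1 exons. Of the Mib1 exon bases, 3166 come before that intron and 7771 after it. The library kit does not mark strand, and the annotation on which the authors counted may differ from this one, so reads from the antisense partner cannot be told apart from Mib1 reads wherever the 2 overlap in theirs. Svil starts 5.81 Mb from the start of Mib1 on the same chromosome.

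**Figure D1:**
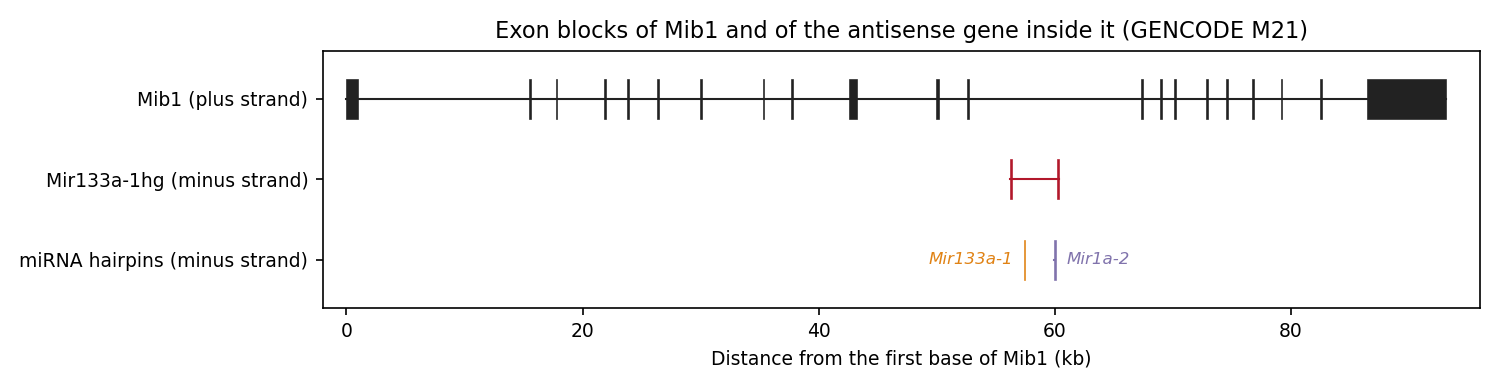
The exon blocks of Mib1 (plus strand) and of Mir133a-1hg (minus strand) in GENCODE M21 are drawn with the microRNA hairpins against the distance in kb from the Mib1 start. Mir133a-1hg, 4161 bases long, sits inside 1 intron of Mib1 and shares 0 exon bases with it.

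Mib1 was low in all 3 Svil-Mut muscles and in no other. It stood at 547, 623 and 496 normalized counts in Svil-Mut, at 9896, 4939 and 8127 in Svil-KO, and at 9818, 7634 and 8474 in WT. The Svil-Mut values did not overlap with those of either other genotype, while the Svil-KO and WT values overlapped, with Svil-KO replicate 3 below every WT library. The means were 555 ± 64.2 in Svil-Mut, 7654 ± 2512 in Svil-KO and 8642 ± 1102 in WT, each over 3 mice with its SD. As shares, the Svil-Mut mean was 6.43% of the WT mean, and the Svil-KO mean was 88.6% of it.

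On the log2 scale Mib1 differed by -3.96 ± 0.21 (SE; 95% interval -4.43 to -3.49) between Svil-Mut and WT, and by -3.73 ± 0.21 between Svil-Mut and Svil-KO. Between Svil-KO and WT the difference was -0.23 ± 0.21 (95% interval -0.70 to 0.24), and without Svil-KO replicate 3 it was 0.06. Transcripts did not vanish in Svil-Mut, where 524 to 653 reads fell on Mib1 in each library. Ranked by mean normalized count among the 56805 genes, Mib1 was at place 6054 in Svil-Mut, 583 in Svil-KO and 509 in WT. Among the 11926 genes that averaged at least 50 normalized counts in Svil-Mut or WT, 5 had a larger log2 difference than Mib1 in either direction.

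The antisense host gene Mir133a-1hg did not share the Mib1 pattern in size. Its normalized counts were 265, 242 and 359.5 in Svil-Mut, 358, 379 and 368 in Svil-KO, and 324, 472 and 379 in WT, and Svil-Mut replicate 4 lay within the WT range. Its mean was 289 ± 62.2 in Svil-Mut, 73.8% of the WT mean of 391 ± 74.6 (SD, n = 3 each). The log2 difference of -0.44 ± 0.19 was not called (limma adjusted p = 0.483). In the same list of miR-1 and miR-133 genes, 2 of the 8 in the table had enough reads to be tested, and 5 microRNA rows, among them Mir1a-2, were listed at 0 in all 9 libraries. Libraries were primed with oligo(dT), which does not capture mature microRNAs, since these carry no poly(A) tail.

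Mib2, the paralogue that also ubiquitinates Notch ligands, was not called in any comparison. Its normalized counts were 1027, 779.9 and 749 in Svil-Mut, 1083, 1235 and 1174 in Svil-KO, and 904, 1258 and 844 in WT. The Svil-Mut values lay below all 3 Svil-KO values and overlapped with WT. The log2 difference was -0.22 ± 0.17 for Svil-Mut against WT (limma adjusted p = 0.711) and -0.46 ± 0.17 for Svil-Mut against Svil-KO (adjusted p = 0.41). Per kilobase of exon, the Mib1 level was 0.23, 0.345 and 0.286 times that of Mib2 in the Svil-Mut libraries. The same ratio was 3.95, 1.73 and 2.99 in Svil-KO and 4.69, 2.62 and 4.34 in WT, so the order of the paralogues by level per length was turned round in all 3 Svil-Mut muscles.

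**Figure D2:**
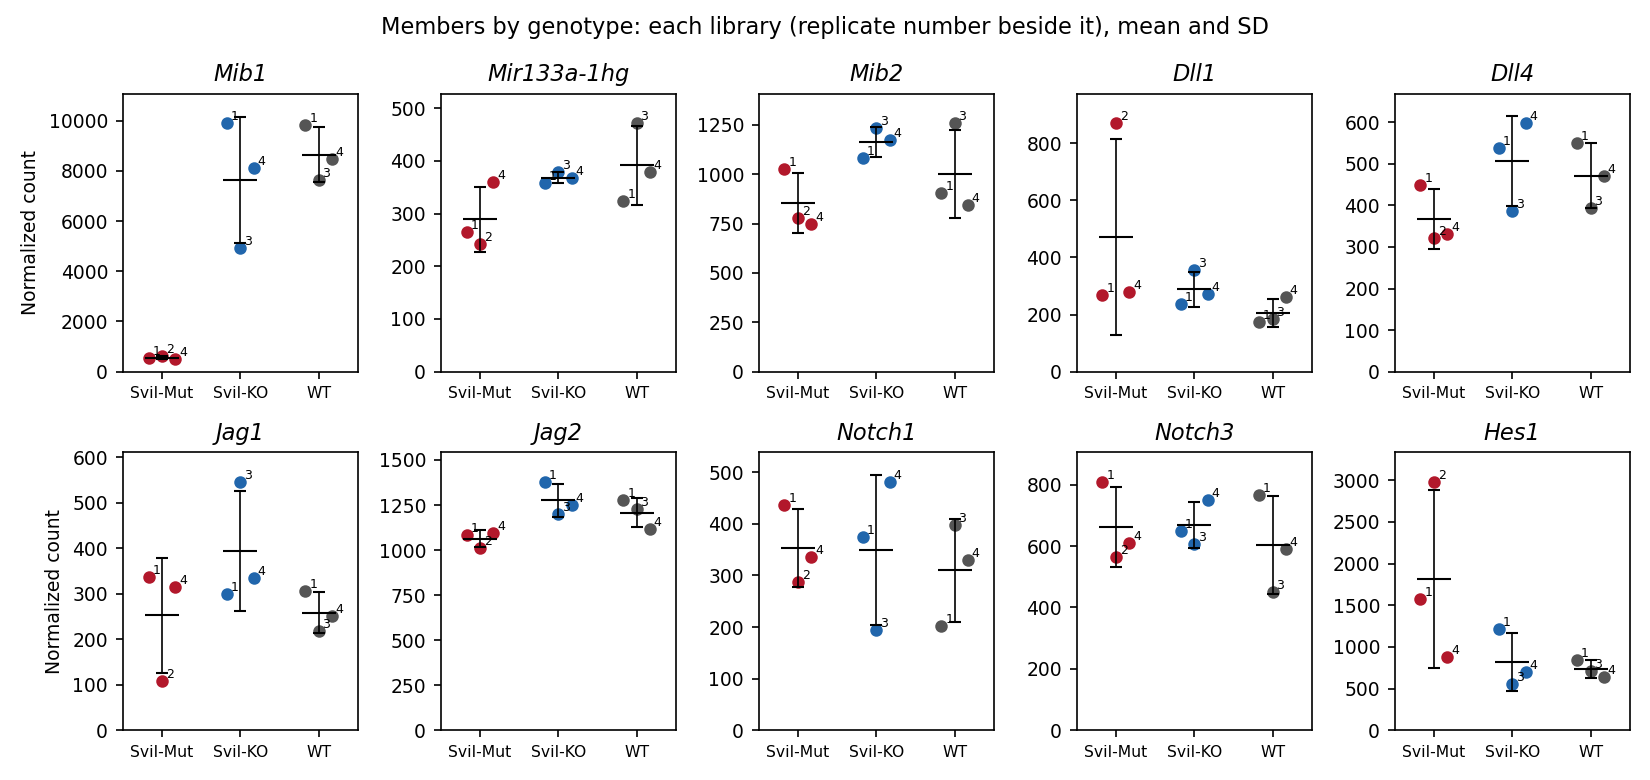
Each panel shows 1 member, with the normalized count of every library as a numbered point and the mean with its SD as a black bar and whiskers, in the order Svil-Mut, Svil-KO and WT on linear axes from 0. Mib1 is at 496 to 623 in Svil-Mut and at 4939 or more in every other library, while in 6 of the other 9 panels the Svil-Mut and WT points overlap.

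None of the other 9 members was called in Svil-Mut against WT by limma (adjusted p 0.388 to 0.927), where 0.0393% of all tested genes were called. By unadjusted p under 0.05 there were 3 of 9, Hes1 and Dll1 higher and Mir133a-1hg lower, beside 10% of all tested genes. Libraries stood apart, with no overlap between Svil-Mut and WT, for 3 of 9, with Hes1 and Dll1 higher and Jag2 lower, beside 13.9% of all genes tested. In Svil-Mut against Svil-KO, 0 of 9 were called, with 0.0458% of all tested genes called, and 3 of 9 had an unadjusted p under 0.05 (10.2% of all), Hes1 higher and Mib2 and Jag2 lower. There, Mib2 and Jag2 did not overlap, 2 of 9 beside 15.2% of all. In Svil-KO against WT, 0 of 9 were called (0% of all tested genes) and 0 of 9 had an unadjusted p under 0.05 (4.11% of all). In that comparison 0 of 9 were without overlap, beside 10.7% of all, and the log2 differences ran from -0.07 to 0.57. Run on whole reads, edgeR (quasi-likelihood) and DESeq2 also called none of these 9 members in any of the 3 comparisons. These comparisons share libraries with each other, so their values for a gene are not independent.

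**Figure D3:**
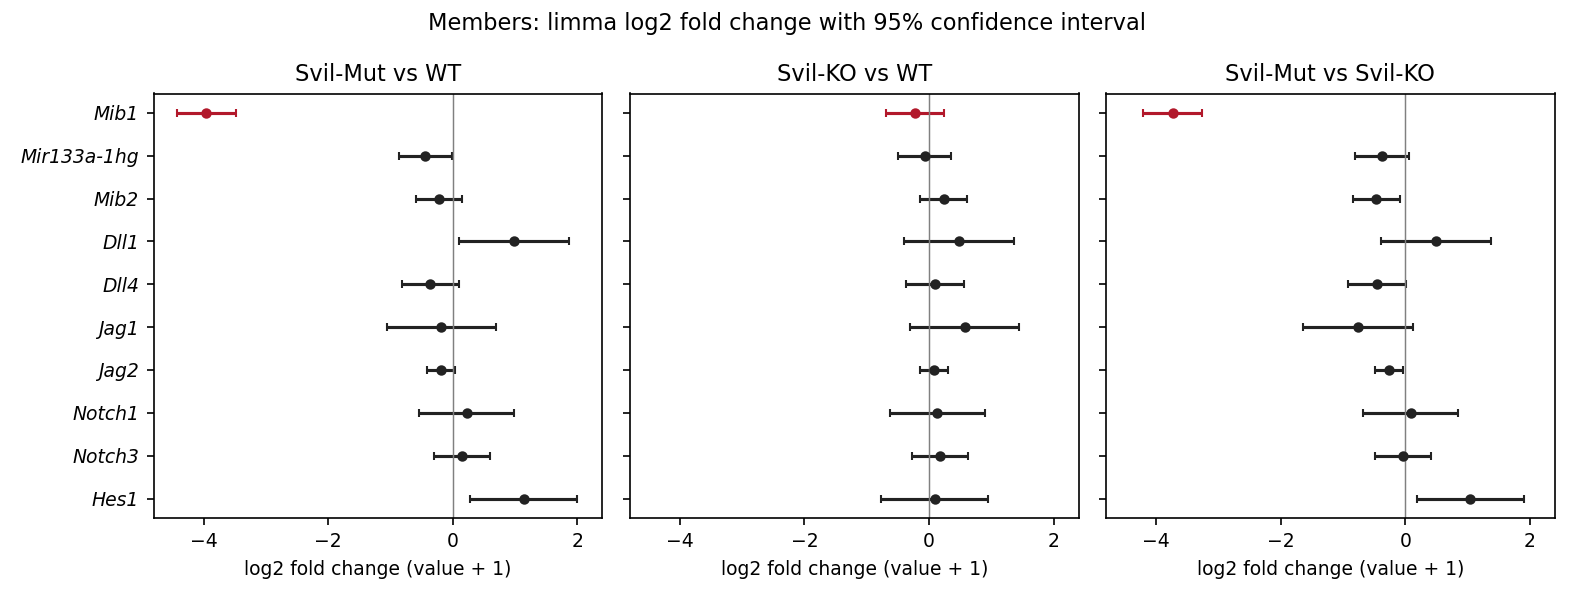
Log2 differences of the 10 members (points) with their 95% confidence intervals (lines) from limma are plotted for Svil-Mut against WT, Svil-KO against WT and Svil-Mut against Svil-KO. Mib1 stands at -3.96 and -3.73 in the comparisons with Svil-Mut, and the other members lie between -0.75 and 1.14.

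Of the 4 ligands, Dll1 and Jag2 had Svil-Mut libraries apart from WT, in opposite directions, and neither was called. Dll1 (chromosome 17, 15367354 to 15376872) encodes a Delta-like ligand. It stood at 269.8, 869.7 and 277 normalized counts in Svil-Mut, 237, 357 and 271 in Svil-KO, and 173, 185 and 263 in WT. Replicate 2 of Svil-Mut was more than 3 times as high as the other 2 Svil-Mut libraries, which lay just above the highest WT library. The log2 difference was 0.98 ± 0.40 for Svil-Mut against WT (limma adjusted p = 0.443) and 0.43 without Svil-Mut replicate 2.

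Jag2 (chromosome 12, 112907819 to 112929776), a Jagged ligand, had 1082, 1010.0 and 1097 normalized counts in Svil-Mut, 1379, 1201 and 1249.6 in Svil-KO, and 1279.8, 1226 and 1119 in WT. All 3 Svil-Mut values were below all values of the other genotypes, but the gap was narrow, and the log2 difference to WT was -0.18 ± 0.10 (limma adjusted p = 0.59). It was the steadiest ligand, with an SD of 46.4 around a mean of 1063 in Svil-Mut and 82.1 around 1208 in WT (n = 3 each).

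The ligands known from endothelium overlapped between genotypes. Dll4 (chromosome 2, 119325784 to 119335962), which guides sprouting vessels, stood at 450.0, 322 and 331 normalized counts in Svil-Mut, 537, 386 and 597 in Svil-KO, and 550.2, 395 and 469.7 in WT. Jag1 (chromosome 2, 137081456 to 137116644) stood at 337, 108 and 314 in Svil-Mut, 300.4, 546 and 336 in Svil-KO, and 306, 218 and 252 in WT. Its lowest value was in Svil-Mut replicate 2, the library with the highest Dll1. The log2 differences of Svil-Mut against WT were -0.36 ± 0.21 for Dll4 (limma adjusted p = 0.611) and -0.18 ± 0.40 for Jag1 (adjusted p = 0.927). In bulk muscle, fewer cells of a type and less RNA per cell cannot be told apart. The summed level of 12 endothelial markers was 12017 to 15385 in Svil-Mut, 11644 to 14006 in Svil-KO and 11922 to 14375 in WT, overlapping ranges. In any comparison 0 of the 12 were called, beside at most 0.0458% of all tested genes.

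Neither receptor separated the genotypes. Notch1 (chromosome 2, 26457903 to 26516663), found on satellite cells and endothelium among others, stood at 437, 287 and 336 normalized counts in Svil-Mut, 374, 194 and 482 in Svil-KO, and 201, 399 and 329 in WT. Notch3 (chromosome 17, 32120820 to 32166852), known from mural cells of vessels and from satellite cells, stood at 809, 563 and 610.3 in Svil-Mut, 650.4, 605 and 749.6 in Svil-KO, and 768, 451 and 591 in WT. Within each genotype the spread between mice was wider than the distance between the means, which for Notch1 were 353, 349.8 and 309.7 in Svil-Mut, Svil-KO and WT. The log2 differences of Svil-Mut against WT were 0.22 ± 0.34 for Notch1 (limma adjusted p = 0.885) and 0.15 for Notch3 (adjusted p = 0.867). The mural marker sum was 20311 to 23112 in Svil-Mut, 22492 to 24366 in Svil-KO and 22354 to 24654 in WT, and the satellite cell sum was 5336 to 6249, 5081 to 5948 and 5070 to 5704 in the same genotypes. None of the 10 mural and 8 satellite cell markers was called in any comparison, beside at most 0.0458% of all tested genes. In Svil-Mut against WT 4 of the 8 had all Svil-Mut libraries below WT and 1 had them above, beside 13.9% of all tested genes without overlap, and the median log2 difference was -0.35. Unadjusted p was under 0.05 for 3 of the 8 (1 higher and 2 lower), and the part of these markers in the receptor values was not tested.

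Hes1 (chromosome 16, 30064384 to 30067796), a transcriptional repressor and the classical target of the pathway, was higher in every Svil-Mut library than in any WT library and was not called. It stood at 1580.2, 2982 and 877 normalized counts in Svil-Mut, 1210.5, 555 and 695 in Svil-KO, and 847, 710.3 and 642 in WT. The Svil-Mut values spread over more than a 3-fold range, and the lowest of them, replicate 4, was close to the highest WT library and below Svil-KO replicate 1. The means were 1813 ± 1072 in Svil-Mut, 820.4 ± 345 in Svil-KO and 733 ± 104 in WT (n = 3 each, ± SD). The log2 difference was 1.14 ± 0.39 for Svil-Mut against WT (95% interval 0.28 to 2.0, limma adjusted p = 0.388) and 1.05 ± 0.39 for Svil-Mut against Svil-KO (adjusted p = 0.414). Without Svil-Mut replicate 2 the difference to WT was 0.69.

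Hes1 is also known as an early-response gene, and Fos, an immediate early gene named here after its values were seen, was high in the same libraries. Fos stood at 2739.8, 2732 and 2418 normalized counts in Svil-Mut, 245, 284 and 185 in Svil-KO, and 287, 213.5 and 167 in WT. The 3 Svil-Mut libraries were alike in Fos and unlike in Hes1. Whether the 2 genes are linked in these muscles was not tested.

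None of the other genes listed as targets was called, and 4 of the 10 listed were too low to test. Hey1, a repressor of the Hey family, stood at 315, 158 and 498 normalized counts in Svil-Mut, 247, 271 and 358 in Svil-KO, and 180.5, 277 and 234 in WT. Heyl, of the same family, stood at 591, 453 and 428 in Svil-Mut, 527, 267 and 456 in Svil-KO, and 418, 363 and 356 in WT, so its Svil-Mut values were all above WT. Nrarp, a feedback inhibitor of Notch, stood at 133, 96.4 and 65.3 in Svil-Mut, 39.6, 68.3 and 67.8 in Svil-KO, and 85.3, 38.5 and 40.8 in WT. Hes6 and Hey2 had lower means in Svil-Mut than in WT, with overlapping libraries. Hes6, of the Hes family, stood at 342, 316 and 278 in Svil-Mut, 375, 463 and 236 in Svil-KO, and 320.5, 345 and 319 in WT. Hey2, of the Hey family, was low, at 11.2, 16.2 and 18.9 in Svil-Mut, 7.70, 38.7 and 4.78 in Svil-KO, and 30.6, 44.5 and 3.06 in WT. Of the 6 tested genes on the target list, 0 were called in any comparison, beside at most 0.0458% of all tested genes. For Svil-Mut against WT, 4 had a log2 difference above 0 and 2 below 0. Their median was 0.36, beside -0.0046 over all tested genes.

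Hes5, the target most often used to read out the pathway in the nervous system, was almost silent, with 0, 0 and 3 reads in Svil-Mut, 0 in each Svil-KO library, and 0, 4 and 9 reads in WT. Its promoter is printed as an example of a window with 2 matches to Rbpj-type letters, in opposite orientations. The window runs from 250 bases before to 50 bases after the transcript start in RefSeq, on the plus strand of GRCm38.p6 at chr4:154960673-154960972, with TGGGAA or its reverse complement TTCCCA in capitals, 226 and 82 bases before the start.
Hes5 promoter: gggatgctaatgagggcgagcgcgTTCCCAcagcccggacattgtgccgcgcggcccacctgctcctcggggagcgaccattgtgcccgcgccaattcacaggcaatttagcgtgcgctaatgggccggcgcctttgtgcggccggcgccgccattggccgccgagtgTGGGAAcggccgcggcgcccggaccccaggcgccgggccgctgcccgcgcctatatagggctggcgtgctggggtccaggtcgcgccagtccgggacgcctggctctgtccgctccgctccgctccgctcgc
These letters were searched on both strands in all 32851 windows of 300 bases, and 25.6% of the windows held at least 1 match and 3.79% held 2 or more. Windows were found for 7 of the 10 members, 9 windows in all, and 0 of them held the letters. Hes1 was not among the members with a window, so its promoter was not searched. Of 5 genes on the target list with a window, 3 held them, Hes5, Hey2 and Hes7. A match describes the letters and does not show binding.

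Per kilobase of exon, the members kept a similar order in Svil-KO and WT. Mib1 stood at place 8 in Svil-Mut and 2 in WT, Hes1 at 1 and 3, and Dll1 at 5 and 8. In Svil-Mut the mean normalized counts per kilobase were highest for Hes1 (890) and Mir133a-1hg (731), then Mib2 (180.4), Jag2 (153), Dll1 (112), Dll4 (95.4), Notch3 (81.7), Mib1 (50.8), Jag1 (43.4) and Notch1 (24.8). In WT they were highest for Mir133a-1hg (991) and Mib1 (790.2), then Hes1 (359.8), Mib2 (212), Jag2 (173), Dll4 (122), Notch3 (74.6), Dll1 (49.1), Jag1 (44.4) and Notch1 (21.8). In WT the libraries overlapped between neighbours in that order for Mir133a-1hg and Mib1, Mib2 and Jag2, Notch3 and Dll1, and Dll1 and Jag1. Neighbours in the Svil-Mut order overlapped for Hes1 and Mir133a-1hg, Jag2 and Dll1, Dll1 and Dll4, Dll4 and Notch3, Mib1 and Jag1, and Jag1 and Notch1. Among the listed Notch ligand ligases, Neurl1a, whose protein also ubiquitinates Notch ligands, had 6829, 6714 and 5117 normalized counts in Svil-Mut and 6865, 7334 and 6741 in WT, with a log2 difference of -0.18 ± 0.11 that was not called.

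Of a list of 85 Notch pathway genes, 78 were tested, Mib1 among them. Of the other 77 genes, 0 were called by limma in any comparison, beside at most 0.0458% of all tested genes. By edgeR's quasi-likelihood test or DESeq2, 0 of the 77 were called. In Svil-Mut against WT, 7 of the 77 had an unadjusted p under 0.05 (5 higher and 2 lower), beside 10% of all tested genes. Libraries were apart for 12 (7 higher and 5 lower), beside 13.9% of all tested genes, and the median log2 difference over the 77 was 0.0086, beside -0.0046 over all tested genes. In Svil-Mut against Svil-KO, 8 of the 77 had an unadjusted p under 0.05 (3 higher and 5 lower), beside 10.2% of all. In Svil-KO against WT it was 4 of the 77 (2 higher and 2 lower), beside 4.11% of all. The role groups had medians in Svil-Mut against WT of -0.27 for 6 ligands, -0.01 for 9 genes of ligand ubiquitination and endocytosis (Mib1 included), -0.05 for 4 receptors, 0.02 for 10 genes of receptor cleavage, -0.06 for 10 of receptor glycosylation, 0.01 for 13 of receptor turnover and 0.04 for 20 of the nuclear complex.

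**Figure D4:**
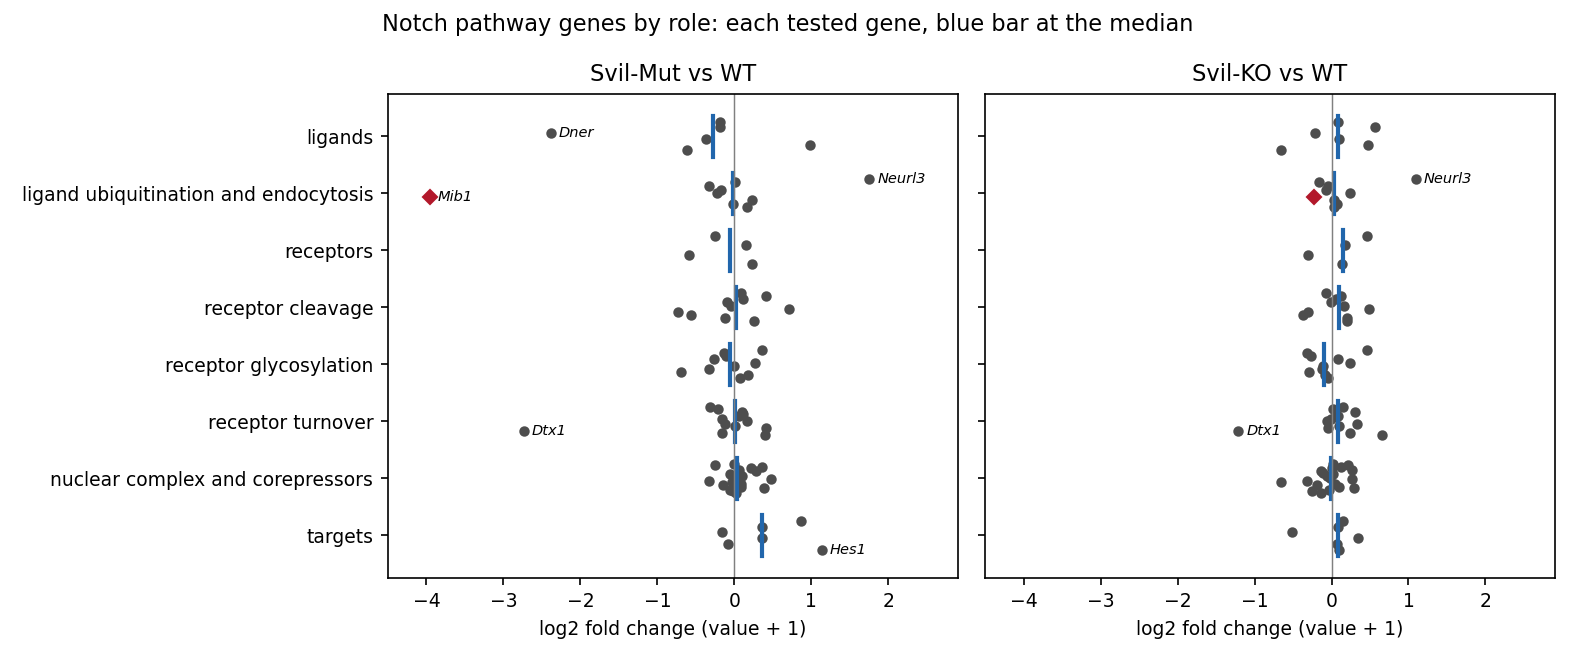
Each point is the log2 difference of 1 tested Notch pathway gene, by role group, in Svil-Mut against WT and in Svil-KO against WT, with a blue bar at each group median and names beside points past 1 in size. Mib1, the red diamond, stands at -3.96 in Svil-Mut against WT, where the group medians lie between -0.27 and 0.36, and Dner, a low-count ligand gene with at most 1 read in each Svil-Mut library, at -2.39.

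The pathway genes with the smallest p among their role group gave values that did not pass adjustment. In Svil-Mut against WT, Dtx1, a Deltex ligase that acts on Notch receptors, differed by -2.74 (limma adjusted p = 0.394) on low counts, 0 to 12 reads in Svil-Mut and 13 to 45 in WT. Neurl3, a Neuralized-type ligase, differed by 1.76 (adjusted p = 0.464), also on low counts. The gamma-secretase genes Psen2 and Aph1b differed by 0.41 (adjusted p = 0.443) and -0.73 (adjusted p = 0.405), and the corepressor gene Ctbp2 by 0.39 (adjusted p = 0.445). Psen2 stood at 468, 420.0 and 402 normalized counts in Svil-Mut and 324, 305 and 343 in WT, without overlap. In Svil-Mut against Svil-KO, the receptor gene Notch4 differed by -0.71 (adjusted p = 0.435), the Deltex-family gene Dtx3l by -0.45 (adjusted p = 0.465), and the corepressor genes Tle4 and Spen by -0.48 (adjusted p = 0.435) and 0.42 (adjusted p = 0.418). In Svil-KO against WT, Aak1, a kinase of clathrin adaptors, differed by 0.66, Rfng, a Fringe glycosyltransferase, by -0.32 and the acetyltransferase gene Crebbp by -0.25, each with an adjusted p of 0.997.

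Of 8 genes for proteins reported to bind or be substrates of Mib1, 0 were called by limma in any comparison. The share over all tested genes was at most 0.0458%. In Svil-Mut against WT 3 of the 8 had an unadjusted p under 0.05, all higher, beside 10% of all tested genes. In Svil-KO against WT it was 2 of the 8, 1 higher and 1 lower, beside 4.11% of all, and in Svil-Mut against Svil-KO 1, higher, beside 10.2%. Ryk, a Wnt receptor, had 2962, 3033 and 3090.1 normalized counts in Svil-Mut, 2605, 3039 and 2620.4 in Svil-KO and 2429, 2323 and 2650.0 in WT, with a log2 difference of 0.30 (limma adjusted p = 0.33). Tbk1, a kinase of innate immune signalling, had 889, 710.3 and 642 in Svil-Mut, 583, 652 and 741 in Svil-KO and 499.9, 546 and 519.6 in WT, with a difference of 0.50 (adjusted p = 0.326). Actn3, the alpha-actinin of fast fibres, differed by 0.42 (adjusted p = 0.35). The 11 fast myofibre markers include Actn3 itself. Their summed level was 9392698 to 9934044 in Svil-Mut, 7965692 to 8890421 in Svil-KO and 7910082 to 8423013 in WT. In Svil-Mut against WT, 4 of the 11 were higher and 1 lower with an unadjusted limma p under 0.05, beside 10% of all tested genes. Against Svil-KO it was 5 higher and 2 lower, beside 10.2% of all. The part of fast fibre content in the Actn3 value was not tested.

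Within 500 kb of the Mib1 midpoint, 6 other genes were tested and 0 were called by limma in any comparison. Of all tested genes, 0.0393% were called in Svil-Mut against WT, 0% in Svil-KO against WT and 0.0458% in Svil-Mut against Svil-KO. Abhd3, a phospholipase gene whose nearer edge lies 18776 bases before the Mib1 start, had 111, 128 and 107 normalized counts in Svil-Mut, 23.1, 25.5 and 67.8 in Svil-KO, and 18.6, 33.4 and 21.4 in WT. Its Svil-Mut libraries were all above the others, and the log2 difference to WT was 2.23 ± 0.45 (limma adjusted p = 0.185). DESeq2 gave it an adjusted p of 0.00425 against WT, the only 1 of 19 alternatives to call it. Gata6, a transcription factor gene, had 0, 13.4 and 5.68 in Svil-Mut, 13.2, 19.4 and 27.1 in Svil-KO, and 29.5, 25.3 and 23.4 in WT (limma log2 difference -2.56 ± 0.89, adjusted p = 0.394). Snrpd1, a core splicing protein gene, differed by -0.11, Esco1, a cohesin acetyltransferase gene, by 0.26, and neither was called. Greb1l stood at 50.9, 0.955 and 4.73 in Svil-Mut and 0, 1.01 and 2.04 in WT, with Svil-Mut replicate 1 far above the others, and its log2 difference of 2.19 ran from 0.87 to 4.20 over the alternatives.

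The genes whose profile over the 9 libraries was most like that of Mib1 were Nav3, Myom3, Mtmr7, Zim1 and Ostn, out of 11662 candidates. Likeness was the root mean square difference between log2 profiles, each taken as the deviation from its own WT mean, and it was 0.873 for Nav3 and 1.05 for Myom3, against a median of 2.31 over the candidates. Nav3 stood at 7.13, 2.86 and 16.1 normalized counts in Svil-Mut, 66.0, 111 and 81.3 in Svil-KO, and 64.5, 77.9 and 86.6 in WT. Myom3, an M-band protein gene, stood at 221, 64.0 and 152 in Svil-Mut, 540.3, 390.3 and 460.1 in Svil-KO, and 656, 886 and 625 in WT. Both were chosen for their likeness to Mib1, so their low values in all 3 Svil-Mut libraries largely follow from that choice. Myom3 also lay lower in every Svil-KO library than in WT. Ostn, the gene of the secreted peptide osteocrin, stood at 452, 998 and 90.8 in Svil-Mut, 1842, 986 and 1153 in Svil-KO, and 1996, 1345 and 1961 in WT.

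Markers of other cell types and of slow fibres varied among the same libraries. The summed level of 6 slow myofibre markers was 920.3 to 5971 in Svil-Mut, 5002 to 19088 in Svil-KO and 4632 to 9831 in WT, lowest in Svil-Mut replicate 2, the library with the highest Hes1 and Dll1. All 6 were below 0 in Svil-Mut against WT (median log2 difference -1.12), 1 with an unadjusted limma p under 0.05, beside 10% of all tested genes. Against Svil-KO all 6 were also below 0 (median -1.92), 3 with an unadjusted p under 0.05, beside 10.2% of all. The sum of 7 red blood cell markers was 6559 to 49454 in Svil-Mut, 2635 to 6208 in Svil-KO and 4431 to 8147 in WT, highest in Svil-Mut replicate 4. Of the 6 tested, 5 had an unadjusted limma p under 0.05 in Svil-Mut against WT, all higher, beside 10% of all tested genes. Their median log2 difference was 1.65. Against Svil-KO it was also 5 of 6, all higher, beside 10.2% of all. Of the 8 adipocyte markers, 4 had an unadjusted p under 0.05 in Svil-Mut against WT, all with lower values (beside 10% of all tested genes in either direction). Their median log2 difference was -1.35 there and -1.28 in Svil-KO against WT, where all 8 were below 0 and 0 had an unadjusted p under 0.05 (4.11% of all). In Svil-Mut against Svil-KO the median was -0.23, and 1 of the 8 had an unadjusted p under 0.05, beside 10.2% of all. Their sum was 7079 to 10656 in Svil-Mut, 8502 to 9775 in Svil-KO and 9664 to 11453 in WT. All 3 Svil-Mut libraries also stood apart in the share of reads from the mitochondrial genome, 3.93 to 5.03%, against 5.87 to 6.56% in Svil-KO and 5.32 to 6.51% in WT. The 10 most abundant genes took 27.6 to 28.8% of the reads in Svil-Mut, 24.4 to 26.7% in Svil-KO and 24.6 to 25.8% in WT. Of the 93 tested markers in all lists 0 were called by limma in any comparison, beside at most 0.0458% of all tested genes. In Svil-Mut against WT 20 of them (11 higher and 9 lower) had an unadjusted p under 0.05, beside 10% of all tested genes. No marker was at 0 in all libraries. The part of cell composition and of these shares in the Mib1 value was not tested.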

How the data were processed

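Polyadenylated RNA of 9 muscles was amplified with a SMARTer low-input kit and tagmented, per the labels' protocols. Per the submitters' processing notes, HISAT2, featureCounts and DESeq2 were used with the mm10 build. Not given in the sources used here were their versions, their settings and the gene annotation. Each deposited signal is a read count divided by the library's size factor. Of the nonzero values, 100% came out as whole reads (tolerance 0.001) when the size factor was undone. All sample columns were used.

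Genes were tested with limma, fitted to log2(normalized count + 1) over all 9 libraries with genotype as the only factor and a mean-variance trend. Tested genes reached 10 in at least 3 libraries. This scale understates differences of low genes. The limma steps were tested on simulated data. The deposited values carry 36234428 to 48762188 reads per library, and reads without molecular identifiers are not independent molecules.

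The members and lists were chosen with earlier results of these data known. Named genes are Svil, the members, up to 4 genes per role group with the smallest p (under 0.05), Mib1 partners, genes within 500 kb of Mib1 and the 5 most like it (WT mean of at least 50). Hes5, Hes6, Hey1, Hey2, Heyl, Nrarp, Neurl1a, Dner and Fos were named outside that rule. Of the partners, only those with an unadjusted p under 0.05 in Svil-Mut against WT are given singly. All libraries carry batch label 1. Positions came from GENCODE M21 and promoters from RefSeq.

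Alternatives were pseudocounts of 0.5 and 10, no filter, a mean of at least 50, equal totals, no variance trend, DESeq2, edgeR, a replicate block, only the 2 genotypes compared, an adjusted p of 0.10, and leaving out each library. The tests ran in R 4.3.3 with DESeq2 1.42.0, limma 3.58.1 and edgeR 4.0.16, and figures were drawn with matplotlib 3.10.9 under Python 3.11.15.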

Additional observations from a re-analysis of the deposited data

Results flagged for a closer look

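The effects of the 2 genotypes against WT differed for Svil and for Mib1, which is the comparison of Svil-Mut with Svil-KO. Svil was lower by a log2 difference of -0.67 in Svil-Mut than in Svil-KO (limma adjusted p = 0.0261), with all 3 Svil-Mut libraries below all 3 Svil-KO libraries. Mib1 differed by -3.73 in the same comparison, with 3 of 3 Svil-Mut libraries below every Svil-KO library. Mib1 had been chosen for this difference, so the value is a description.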

How the results depend on the processing

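Mib1 kept its direction in Svil-Mut against WT and against Svil-KO under all 19 alternatives. The replicate block moved its log2 difference to WT to -4.23. With each library left out it ran from -4.04 to -3.86 against WT and from -4.02 to -3.52 for Svil-Mut against Svil-KO. For Svil-KO against WT it ran from -0.44 to 0.06. No other member, and none of the other 77 Notch pathway genes, was called under any alternative.

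Counts over all genes were less stable. In Svil-Mut against WT, 6 genes were called, and 19 with a pseudocount of 10, 16 with the stricter filter, 14 with only the 2 genotypes compared, 176 with DESeq2, 20 at an adjusted p under 0.10 and 4 to 18 with each library left out (18 and 13 when Svil-Mut replicate 1 or 4 was left out, 17 and 12 when Svil-KO replicate 1 or 3 was). In Svil-Mut against Svil-KO, 7 genes were called, and 216 with DESeq2, 19 at an adjusted p under 0.10 and 4 to 13 with each library left out (13 when Svil-KO replicate 1 was, and 4 when replicate 4 was). In Svil-KO against WT, 0 genes were called, 4 with DESeq2, and 0 with each library left out. The cause was not tested.

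Of 513 recomputed values of the 9 members other than Mib1, 19 turned their sign, none of them called in either setting. Mib1 in Svil-KO against WT turned to 0.06 without Svil-KO replicate 3. With each library left out, Svil-Mut against WT ran from -0.47 to 0.34 for Jag1, -0.057 to 0.43 for Notch1 and -0.045 to 0.34 for Notch3. Svil-KO against WT ran from -0.20 to 0.072 for Mir133a-1hg, -0.037 to 0.28 for Dll4, -0.15 to 0.51 for Notch1, -0.017 to 0.37 for Notch3 and -0.23 to 0.33 for Hes1. Svil-Mut against Svil-KO ran from -0.054 to 0.79 for Dll1, -0.29 to 0.37 for Notch1 and -0.18 to 0.078 for Notch3. Over the 19 alternatives the adjusted p in Svil-Mut against WT ran from 0.159 to 0.635 for Hes1 and from 0.138 to 0.649 for Dll1.

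Whether libraries with the same replicate number form pairs was not tested. Deviations from the genotype means correlated at -0.06 to 0.04 between the 7 same-numbered pairs and at -0.04 to 0.06 between the 20 others, and among the Svil-KO and WT libraries alone, which share all 3 numbers, each of the 6 correlated best with its own number in the other genotype. With Svil-Mut counted in, this did not hold for every library. Same-numbered pairs of Svil-KO and WT stood at 0.026, 0.044 and 0.038, and same-numbered pairs with Svil-Mut at -0.056 to 0.0071. The replicate block gave 7 calls in Svil-Mut against WT, 0 in Svil-KO against WT and 6 in Svil-Mut against Svil-KO. It turned Jag1 in Svil-Mut against WT to 0.42 and Dll1 in Svil-Mut against Svil-KO to -0.0054.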
